A study of Rattus norvegicus with 6 samples.

Results

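Fatty acid oxidation was followed through 32 genes chosen by symbol for their place in the pathway, all of which had a row among the 17055 gene rows of the count files. Of these, 24 belong to the mitochondrial pathway or its control and 8 to peroxisomes. mRNA was sequenced from intact pancreatic islets, the small organs that hold the insulin-secreting beta cells, taken from Sprague-Dawley rats. The P10 group held islets of pups aged 10 days (1.5 weeks) and the adult group islets of males aged 3 months (12 weeks). Both were control animals by the labels, with no treatment or transgene named. Each group had 3 libraries labelled as biological replicates, numbered 1, 3 and 4 at P10 and 1, 2 and 3 in adults. The labels give no sex for the pups, so age and sex cannot be told apart, and they do not say whether a replicate pools several animals. The comparison addresses how mRNA levels of islets change during the postnatal maturation of beta cells, the subject in the series title.

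Fatty acids enter oxidation as coenzyme A (CoA) thioesters, made by acyl-CoA synthetases. The carnitine shuttle carries long chains into mitochondria, where a spiral of dehydrogenation, hydration, a further dehydrogenation and thiolysis shortens them, and electrons from the first step pass through the electron transfer flavoprotein to the respiratory chain. Peroxisomes run a related spiral on very long and branched chains with their own oxidases, bifunctional enzymes and thiolases. In islets fatty acid oxidation is best known through Hadh, the short-chain hydroxyacyl-CoA dehydrogenase, since loss of the human gene causes excess insulin secretion.

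Between 3307415 and 6477825 reads per library were assigned to genes. Levels are given as CPM, a gene's count scaled to a common library size, here with edgeR's TMM factors (trimmed mean of M values), and always in the replicate order above. A floor of 3 counts in a library was worth between 0.407 and 1.10 CPM, for counting error only. The labelled tissue was checked against marker lists. Of the beta-cell markers 6 of 9 tested were higher in adults and none lower, and their summed level ran from 227949 to 297227 CPM at P10 and from 538763 to 671933 CPM in adults. Of the markers of other endocrine cells, 1 of 10 was higher and 3 were lower. Fibroblast markers were lower in 8 of 9 cases (summed level 2827 to 3596 CPM at P10, 292 to 410 CPM in adults, with Col1a2 at 0 in all libraries), and duct markers in 6 of 7 (1664 to 1808 CPM against 389 to 562 CPM). Endothelial markers were lower in 2 of 10 cases (149 to 228 against 93.7 to 146 CPM). Leukocyte markers were lower in 2 of 10 cases, with a median log2 fold change of -0.41 (152 to 314 against 121 to 202 CPM), but without P10 replicate 1, the highest library, 1 was higher and 1 lower, with a median of 0.051. Acinar markers were higher in 2 and lower in 4 of 9, with a summed level of 2933 to 4261 CPM at P10. Their adult sums were 996, 1150 and 3983 CPM, so that adult replicate 3 lay within the P10 range and apart from the other adult libraries. Without it 5 were lower, without adult replicate 1 or 2 only 2 were, and DESeq2 called 0 lower and 2 higher. Of 4 adipocyte markers tested Cidec was higher and Fabp4 lower (summed level 45.8 to 54.6 against 33.7 to 49.6 CPM), and Adipoq, not tested, had no count in any library. The part of these cell types in the results below was not tested, and in whole islets fewer cells of a type and less RNA per cell cannot be told apart.

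P10 replicate 1 stood apart in its empty rows. In it 95 genes without a count had at least 5 counts in each other library, whereas the same number was 4 and 3 for the other P10 libraries and 20, 20 and 39 for the adult libraries. Cpt1b and Acadsb were among the 95, although this library was the deepest of the 6. Values without it are given beside Cpt1b, Acadsb and Acsl1. Other genes moved too when it was left out, such as Slc25a20, whose log2 fold change, adult minus P10, turned from -0.021 to 0.12.

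Of the 32 genes, 30 passed the filter on low counts and were tested, and Ppara and Pex5 did not pass it. In edgeR's quasi-likelihood test at a false discovery rate (FDR) under 0.05, 8 were lower in adult islets (26.7% of those tested), namely Ehhadh, Acaa2, Acsl3, Acadm, Acads, Acadl, Etfb and Etfa. Over all 10124 genes tested 13.8% were lower and 26.3% changed either way. Hadh and Cpt2 were higher (6.67%, where 12.5% of all genes were), and 20 genes did not pass. In the mitochondrial group 7 of 23 tested genes were lower and 2 higher, and in the peroxisomal group 1 of 7 was lower and none higher, with 1 higher (Acox3) at an unadjusted p under 0.05. DESeq2 called Acox3 as higher, where it called 13.1% of all genes in that direction. The median log2 fold change, adult minus P10, was -0.061 in the mitochondrial and 0.013 in the peroxisomal group, beside -0.029 for all genes tested. The libraries of both ages did not overlap for 15 of the 30 genes, 5 higher and 10 lower in adults. Over all tested genes 42.3% did not overlap, 20.0% higher and 22.3% lower. Without P10 replicate 3 the mitochondrial group had 4 lower genes (10.4% of all genes were then lower), and without adult replicate 1 it had 1 higher gene (8.55% of all). Without P10 replicate 1, 5 were lower and 3 higher (12.5% of all genes each).

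The direction of small changes depended on scaling. When libraries were scaled by their totals alone, all genes together had a median log2 fold change of -0.52, and 12 mitochondrial and 3 peroxisomal genes were lower with none higher, where 35.7% of all genes were lower and 3.39% higher. In the same libraries the insulin genes took 28.3% to 33.6% of gene counts at P10 and 46.6% to 52.3% in adults. Each change below is thus a change against most other genes, which the TMM factors hold level.

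**Figure D1:**
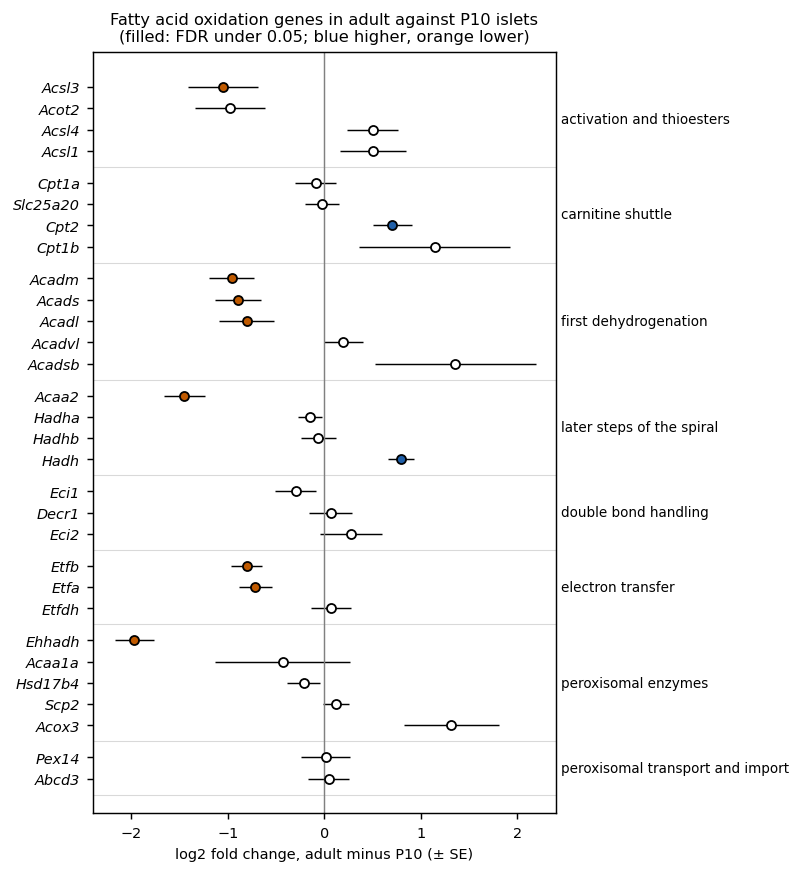
Log2 fold change, adult minus P10, of the 30 tested genes with its standard error (horizontal bars), grouped by role. Filled points passed an FDR of 0.05, blue for higher (Hadh, Cpt2) and orange for lower (8 genes, with Ehhadh farthest left at -1.97), and open points did not pass.

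Sequence just upstream of the start is shown for some of the genes, as background to their levels. Of these Hadh, Ehhadh, Etfa and Etfb passed the test. Hadha and Acadvl did not, and Acadvl was chosen for its motif match. RefSeq promoter windows (GRCr8 build, a later build than that of the counts) matched 28 of the 32 genes, and Acaa2, Acadl, Cpt1b and Decr1 were not matched. The 250 bases before the annotated start were searched on both strands for 3 motifs. These were the DR1 element AGGTCANAGGTCA, the form bound by PPAR-alpha with its partner RXR, with up to 2 mismatches, the GC box GGGCGG and the CCAAT box CCAAT. No match overlapped another in the windows shown. Capitals mark the matches, and each sequence reads 5′ to 3′ on the gene's strand.

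Hadh is shown as the rise with the smallest p, at chr2:222504447-222504696 on the minus strand, and Ehhadh as the gene with the largest fall, at chr11:92746159-92746408 on the plus strand.
Hadh: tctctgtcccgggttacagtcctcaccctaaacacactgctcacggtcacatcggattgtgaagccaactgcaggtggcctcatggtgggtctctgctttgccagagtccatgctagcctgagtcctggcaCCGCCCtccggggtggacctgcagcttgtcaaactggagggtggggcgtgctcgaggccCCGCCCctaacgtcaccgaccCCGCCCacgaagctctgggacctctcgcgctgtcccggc
Ehhadh: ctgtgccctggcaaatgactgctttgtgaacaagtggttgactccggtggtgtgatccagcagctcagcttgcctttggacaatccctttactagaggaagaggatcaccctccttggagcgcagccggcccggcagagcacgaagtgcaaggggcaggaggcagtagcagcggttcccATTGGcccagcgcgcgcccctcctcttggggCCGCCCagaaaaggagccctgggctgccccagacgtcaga
Etfa (chr8:64787966-64788215, minus strand) and Etfb (chr1:102988249-102988498, plus strand) encode subunits of 1 protein and fell together.
Etfa: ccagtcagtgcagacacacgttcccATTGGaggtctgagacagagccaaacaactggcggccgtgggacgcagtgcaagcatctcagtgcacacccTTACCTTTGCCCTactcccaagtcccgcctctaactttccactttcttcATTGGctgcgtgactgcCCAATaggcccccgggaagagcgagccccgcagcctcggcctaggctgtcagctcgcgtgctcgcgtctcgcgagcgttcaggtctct
Etfb: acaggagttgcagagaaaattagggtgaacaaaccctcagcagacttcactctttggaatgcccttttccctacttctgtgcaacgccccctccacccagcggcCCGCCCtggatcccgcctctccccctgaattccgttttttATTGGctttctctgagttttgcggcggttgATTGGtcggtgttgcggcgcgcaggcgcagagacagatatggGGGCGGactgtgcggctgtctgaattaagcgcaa
Hadha and Hadhb lie head to head with 300 bases between their starts, and the stretch shown (chr6:31907551-31907800, plus strand) is the part of that shared region next to Hadha.
Hadha: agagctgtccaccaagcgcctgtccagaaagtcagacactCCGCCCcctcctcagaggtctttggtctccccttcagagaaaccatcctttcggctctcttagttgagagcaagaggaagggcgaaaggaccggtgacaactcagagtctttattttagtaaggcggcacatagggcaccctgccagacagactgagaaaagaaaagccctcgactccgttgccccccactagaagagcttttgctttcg
Acadvl (chr10:55236706-55236955, minus strand) held the closest match to the DR1 element among the 28 windows.
Acadvl: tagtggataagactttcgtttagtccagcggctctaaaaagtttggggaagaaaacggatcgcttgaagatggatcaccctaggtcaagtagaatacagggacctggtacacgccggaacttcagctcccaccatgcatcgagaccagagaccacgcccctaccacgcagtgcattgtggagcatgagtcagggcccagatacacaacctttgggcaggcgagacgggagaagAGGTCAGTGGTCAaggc

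The Acadvl site, AGGTCAGTGGTCA, has 1 mismatch and ends 5 bases before the start. At most 1 mismatch was found in 3.57% of the 28 windows and 0.368% of all 33469 windows of the same length. With up to 2 mismatches Etfa matched too (TTACCTTTGCCCT, minus strand of the window), 7.14% against 3.15%. A GC box was found in 71.4% of the 28 windows and 30.5% of all, with 3 in the Hadh window. A CCAAT box was found in 28.6% and 34.0%, with 3 in the Etfa and 2 in the Etfb window. The full set of windows was not matched to the 28 for gene type, expression or base content. The differences in share are therefore not read as traits of this pathway. These matches describe the letters in the windows and were not tested for binding.

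Of the acyl-CoA synthetases Acsl3, Acsl4 and Acsl1, which activate fatty acids, Acsl3 passed the test and was lower in adults. Acsl3, a long-chain acyl-CoA synthetase of the endoplasmic reticulum and lipid droplets, stood at 18.9, 13.7 and 12.4 CPM at P10 and 10.0, 5.86 and 6.06 CPM in adults. Every adult library was below every P10 library. Acsl3 fell 2.07-fold (log2 fold change -1.05 ± 0.36, SE; edgeR FDR = 0.0442), a call that was lost when any 1 library other than adult replicate 1 was left out (FDR from 0.0619 to 0.130). Acsl4, which prefers arachidonic acid, had 13.7, 13.4 and 15.3 CPM at P10 and 19.7, 17.6 and 22.2 CPM in adults. Its groups lay apart in the other direction, but the log2 fold change of 0.50 ± 0.26 (SE) did not pass (FDR = 0.176). Acsl1, a synthetase of liver, fat and muscle, had 20.2, 9.06 and 9.71 CPM at P10 and 23.2, 18.0 and 15.2 CPM in adults. P10 replicate 1 reached the adult range while the other P10 libraries did not. The log2 fold change was 0.51 ± 0.34 (SE, FDR = 0.302) with all libraries and 1.00 without P10 replicate 1, where it passed (FDR = 0.0319). Acot2, a mitochondrial thioesterase that splits acyl-CoA again, had 21.0, 18.1 and 16.3 CPM and 11.4, 13.2 and 4.59 CPM and a log2 fold change of -0.98 ± 0.37 (SE), which did not pass (FDR = 0.0613). It passed with no filter on low counts (FDR = 0.0402), under library totals alone (-1.48, FDR = 0.00366) and without adult replicate 2 (-1.26, FDR = 0.0484). Its near-identical neighbour Acot1 had 4 counts over the P10 libraries and 0 over the adult libraries, and how reads were split between both genes is uncertain.

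In the carnitine shuttle, Cpt2 was the gene that rose. Cpt2, the transferase of the inner membrane that returns the acyl group to CoA, had 27.0, 34.6 and 36.2 CPM at P10 and 65.7, 50.9 and 43.1 CPM in adults. The groups did not overlap, and Cpt2 rose 1.63-fold (log2 fold change 0.71 ± 0.20, SE; edgeR FDR = 0.0176). The call was lost without adult replicate 1, the highest library (FDR = 0.117), and under library totals alone (log2 fold change 0.21, FDR = 0.476). It was lost too with replicate numbers entered as a block (log2 fold change 0.80, FDR = 0.0937). Cpt1a, the rate-limiting transferase of the outer membrane in liver and islets, had 26.6, 27.9 and 30.3 CPM and 30.4, 24.9 and 24.4 CPM. The groups overlapped, with a log2 fold change of -0.091 ± 0.21 (SE, FDR = 0.792). Cpt1b, the muscle form, had 0, 6.39 and 8.01 CPM at P10 and 11.1, 11.0 and 8.997 CPM in adults, or 0, 43 and 33 and 32, 30 and 49 counts. All adult libraries were higher, but the P10 spread rests on the empty replicate 1. The log2 fold change of 1.14 ± 0.78 (SE, FDR = 0.311) was 0.53 without that library (FDR = 0.358). Slc25a20, the carnitine-acylcarnitine carrier between both transferases, had 68.6, 55.0 and 52.4 CPM and 56.4, 67.8 and 50.5 CPM. Its groups overlapped (log2 fold change -0.021 ± 0.18, SE; FDR = 0.943), with a sign that turned when single libraries were left out.

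The acyl-CoA dehydrogenases take the first step, each on its own range of chain lengths, and those of long, medium and short chains were lower in adult islets while the very-long-chain enzyme was not called. Acadm, the medium-chain enzyme, had 29.4, 33.6 and 35.7 CPM at P10 and 19.4, 13.2 and 17.8 CPM in adults. Acads, the short-chain enzyme, had 29.6, 32.4 and 26.2 CPM and 13.8, 14.3 and 18.7 CPM. Acadl, the long-chain enzyme, had 18.9, 19.2 and 16.3 CPM and 10.4, 9.16 and 11.4 CPM. In all 3 genes every adult library was below every P10 library. Acadm fell 1.95-fold (log2 fold change -0.96 ± 0.23, SE; edgeR FDR = 0.00611) and stayed past the threshold whichever library was left out. Acads fell 1.86-fold (-0.90 ± 0.24, FDR = 0.0109) and came to an FDR of 0.0510 without P10 replicate 3 or adult replicate 1. Acadl fell 1.75-fold (-0.80 ± 0.29) with an FDR of 0.0499, at the threshold. It did not pass when any 1 of the 6 libraries was left out (FDR from 0.0666 to 0.140), nor in DESeq2 (FDR = 0.0673). Acadvl, the very-long-chain enzyme bound to the inner membrane, had 31.3, 40.3 and 38.1 CPM and 39.4, 33.7 and 51.2 CPM. Its groups overlapped (log2 fold change 0.20 ± 0.20, SE; FDR = 0.525; -0.30 under library totals alone). Acadsb, which acts on short branched chains from isoleucine, had 0, 4.01 and 4.61 CPM and 8.65, 5.50 and 7.34 CPM. Its log2 fold change of 1.36 ± 0.83 (SE, FDR = 0.255) was 0.75 without the empty P10 replicate 1.

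Electrons from these dehydrogenases pass to the electron transfer flavoprotein, and the genes of both its subunits fell. Etfa, the alpha subunit, had 78.9, 71.3 and 57.8 CPM at P10 and 42.5, 43.6 and 41.1 CPM in adults. Etfb, the beta subunit, had 121, 114 and 119 CPM and 77.1, 52.4 and 72.5 CPM. In both the groups lay apart, and the adult libraries of Etfa were within a narrow range. Etfa fell 1.64-fold (log2 fold change -0.71 ± 0.17, SE; edgeR FDR = 0.00572) and Etfb 1.75-fold (-0.81 ± 0.16, FDR = 0.00135). Both calls held whichever library was left out. Etfdh, the oxidoreductase that hands these electrons to ubiquinone, had 25.1, 30.3 and 27.7 CPM and 27.0, 28.6 and 31.4 CPM. Its groups overlapped, with a log2 fold change of 0.071 ± 0.20 (SE, FDR = 0.836; -0.43 under library totals alone).

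Of 4 genes of the later steps of the spiral, Hadh was higher, Acaa2 was lower, and Hadha and Hadhb did not pass. Hadh had 296, 261 and 282 CPM at P10 and 566, 484 and 407 CPM in adults. The lowest adult library was above the highest P10 library, and Hadh rose 1.73-fold (log2 fold change 0.79 ± 0.13, SE; edgeR FDR = 0.000393). The call held whichever library was left out (log2 fold change 0.67 to 0.91). Under library totals alone it was 0.30 and did not pass (FDR = 0.112). Beside it the median of the beta-cell markers was 1.03 on the same scale. Acaa2, the mitochondrial thiolase that splits off acetyl-CoA, had 41.5, 41.8 and 39.6 CPM at P10 and 16.3, 15.8 and 13.2 CPM in adults. Its groups were tight and far apart, and Acaa2 fell 2.74-fold (-1.45 ± 0.21, FDR = 0.000115), a call that held under all 13 alternatives. Hadha and Hadhb encode the trifunctional protein, which takes long chains through hydration, dehydrogenation and thiolysis. Hadha had 149.7, 136 and 144 CPM and 139.7, 125 and 123 CPM, and Hadhb 44.3, 48.4 and 39.6 CPM and 36.7, 48.7 and 41.9 CPM. In each the groups overlapped. The log2 fold changes were -0.15 ± 0.13 (SE, FDR = 0.423) and -0.061 ± 0.18 (FDR = 0.843), and under library totals alone both passed as lower (-0.64 and -0.56, FDR = 0.00241 and 0.0298).

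**Figure D2:**
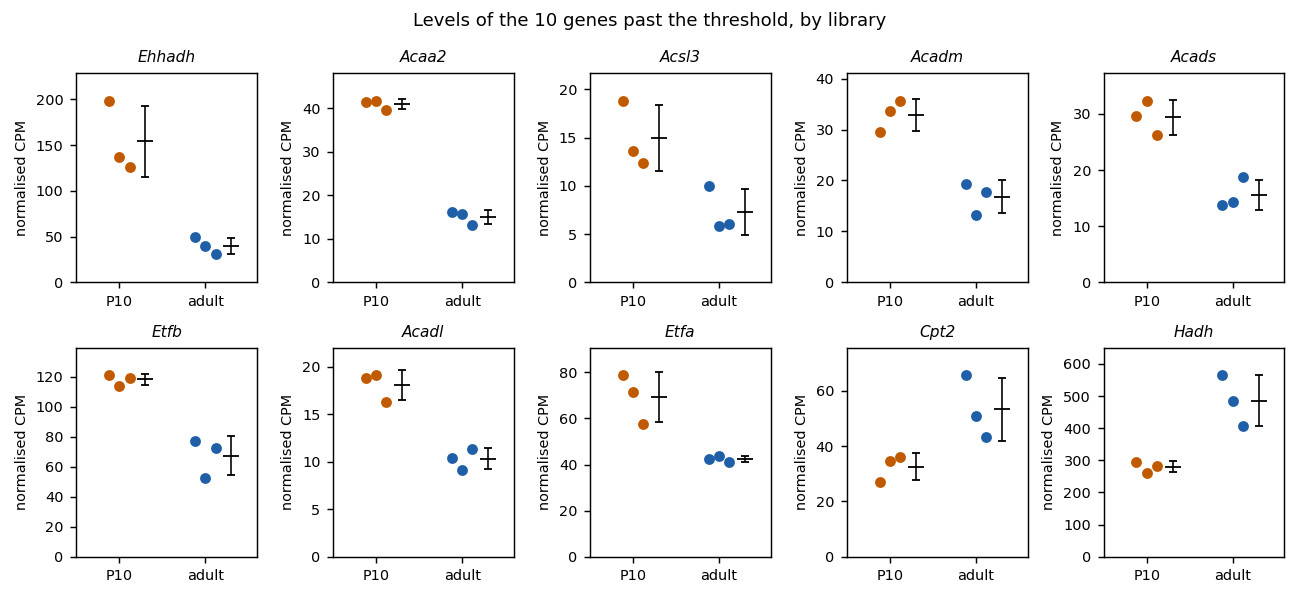
Normalised CPM of the 10 genes that passed the threshold, in each library (points; P10 replicates 1, 3 and 4 and adult replicates 1, 2 and 3 from left to right), with the mean and SD of each group (n = 3) beside them and a vertical axis from 0. The groups do not overlap in any of the 10; Ehhadh and Acaa2 are farthest apart among the falls, and Hadh and Cpt2 are the rises.

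Enzymes that handle existing double bonds did not pass the test. Eci1, the main mitochondrial enoyl-CoA isomerase, had 36.5, 29.3 and 36.2 CPM at P10 and 32.2, 28.2 and 23.1 CPM in adults (log2 fold change -0.30 ± 0.21, SE). Eci2, an isomerase found in mitochondria and peroxisomes, had 11.4, 9.06 and 12.6 CPM and 11.8, 12.1 and 15.8 CPM (0.28 ± 0.32). Decr1, the 2,4-dienoyl-CoA reductase, had 23.5, 20.1 and 23.3 CPM and 24.6, 21.6 and 23.7 CPM (0.067 ± 0.22). The groups overlapped in all 3, with edgeR FDRs from 0.330 to 0.861. Under library totals alone Eci1 passed as lower (-0.78, FDR = 0.00932), and Eci2 and Decr1 turned sign (-0.21 and -0.42).

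Ppara encodes PPAR-alpha, the nuclear receptor that drives fatty acid oxidation genes in fasted liver, and was near the floor in islets. It had 0, 16 and 1 counts in the P10 libraries and 4, 2 and 7 counts in the adult libraries. All but 1 of the 17 P10 counts came from replicate 3, so the libraries give no direction.

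The peroxisomal group held the largest fall of all 30 tested genes. Ehhadh, the L-bifunctional enzyme, which joins hydratase and dehydrogenase activities, had 199, 137 and 126 CPM at P10 and 49.1, 40.0 and 30.8 CPM in adults. P10 replicate 1 was the highest library, and the lowest P10 library was still above every adult library. Ehhadh fell 3.91-fold (log2 fold change -1.97 ± 0.20, SE; edgeR FDR = 4.17e-06). The log2 fold change ran from -2.14 to -1.73 when single libraries were left out and passed in each case. Hsd17b4, the D-bifunctional enzyme that runs the same steps through the other stereoisomer and serves very long and branched chains, had 51.4, 64.2 and 51.5 CPM and 47.7, 48.7 and 47.7 CPM. Its adult libraries lay just under the P10 libraries, and the log2 fold change of -0.21 ± 0.17 (SE) did not pass (FDR = 0.38), though it did as lower under library totals alone (-0.71, FDR = 0.00683).

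Acox3, an oxidase of branched chains, had 2.98, 6.09 and 6.55 CPM at P10 and 20.7, 12.1 and 6.24 CPM in adults. Adult replicate 3 lay within the P10 range, while the other adult libraries were above it. The log2 fold change was 1.31 ± 0.49 (SE) and did not pass (edgeR FDR = 0.0611), but was 1.68 without adult replicate 3 (FDR = 0.0188). DESeq2 called it too (1.33, FDR = 0.0388), and the FDR over all alternatives ran from 0.0188 to 0.365. In the RefSeq table, of a later build than the counts, Acox3 overlaps Trmt44, which also has a row. Without strand their reads cannot be told apart where they overlap, and reads that fell in 2 annotated genes were not counted. Whether both genes overlap in the annotation used for the counts was not checked. Acaa1a, a peroxisomal thiolase, had 55, 14 and 7 counts at P10 and 10, 8 and 12 in adults, with most P10 counts in replicate 1, without which it did not pass the filter (log2 fold change -0.43 ± 0.70, SE; FDR = 0.7). It overlaps Myd88 in the same table, and its near-identical copy Acaa1b had no count in any library. Scp2, whose gene yields a thiolase and a sterol carrier protein, had 159.9, 159.6 and 147 CPM and 149, 196 and 162 CPM. Its groups overlapped (log2 fold change 0.12 ± 0.13, SE; FDR = 0.567), and under library totals alone it passed as lower (-0.38, FDR = 0.0438).

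The transport and import genes did not pass. Abcd3, the peroxisomal half-transporter PMP70, had 45.7, 32.7 and 28.4 CPM at P10 and 41.2, 35.6 and 34.5 CPM in adults (log2 fold change 0.047 ± 0.21, SE; edgeR FDR = 0.897). Pex14, a docking protein of matrix import, had 20.9, 25.9 and 27.2 CPM and 27.3, 30.4 and 17.6 CPM (0.013 ± 0.25, FDR = 0.975). In both the groups overlapped, and both had the other sign under library totals alone (-0.44 and -0.49). For Pex5, the import receptor that brings enzymes to Pex14, the P10 libraries held 0, 2 and 0 counts and the adult libraries none. Echs1, the enoyl-CoA hydratase of the mitochondrial spiral in most tissues, had no count in any library either, so such rows are given as counts only and not as absence of the mRNA.

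Summed over the mitochondrial genes the level ran from 1071 to 1133 CPM at P10 and from 1076 to 1295 CPM in adults, and these ranges overlapped. Without Hadh, the gene with the most counts among them and left out after its values were seen, the sum ran from 802 to 837 CPM at P10 and from 662 to 729 CPM in adults, and the ranges did not overlap. Summed over the peroxisomal genes it ran from 388 to 487 CPM at P10 and from 301 to 366 CPM in adults. Without Ehhadh, left out in the same way, it ran from 262 to 291 and from 269.9 to 326 CPM, and the ranges overlapped. The sums weight each gene by its length as well as its level, and were not tested.

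Ratios of 2 genes within a library do not depend on the scaling between libraries. They were formed for 8 pairs of adjoining or shared steps and compared by two-sided exact permutation, whose smallest p with 3 against 3 libraries is 0.1. A ratio of counts also reflects gene lengths, so only its change with age is read. The ratio of Hadh to Hadha counts was 1.98, 1.92 and 1.95 in the P10 libraries and 4.05, 3.86 and 3.30 in the adult libraries. The adult ratio was 1.91-fold higher (difference of mean log2 ratios 0.93, exact p = 0.1). Hadh to Acaa2 went from 7.13, 6.25 and 7.13 to 34.8, 30.7 and 30.8, 4.70-fold higher in adults (exact p = 0.1). Neither pair overlapped between the ages. Cpt1a to Cpt2 stood at 0.985, 0.807 and 0.839 and 0.463, 0.489 and 0.566, 1.73-fold lower in adults, and Acsl3 to Acsl4 at 1.38, 1.02 and 0.810 and 0.509, 0.333 and 0.273, 2.91-fold lower. Hsd17b4 to Ehhadh, the ratio of the peroxisomal bifunctional enzymes, went from 0.259, 0.467 and 0.407 to 0.972, 1.22 and 1.55, 3.34-fold higher in adults. These 5 ratios had the smallest exact p of 0.1 each, or 0.16 adjusted over the 8 pairs. Each of these pairs holds a gene already called above, so the ratios restate those changes without scaling and are not separate support.

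The ratios of subunits, and that of the synthetases Acsl1 to Acsl4, overlapped between the ages. Etfa to Etfb was 0.651, 0.626 and 0.485 at P10 and 0.552, 0.832 and 0.567 in adults (difference of mean log2 ratios 0.13, exact p = 0.7). Hadha to Hadhb was 3.38, 2.81 and 3.65 and 3.81, 2.57 and 2.94 (difference -0.088, exact p = 0.8). Acsl1 to Acsl4 was 1.48, 0.678 and 0.635 and 1.18, 1.02 and 0.686 (difference 0.12, exact p = 0.8), with P10 replicate 1 highest.

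**Figure D3:**
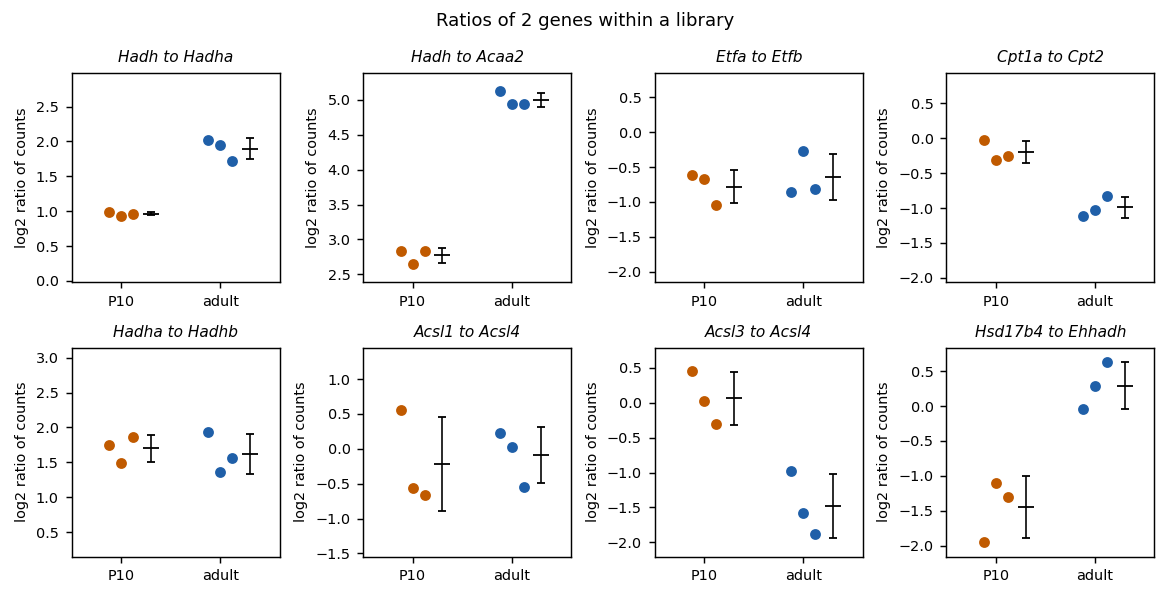
Log2 ratio of the counts of 2 genes within each library (points, in the order of replicates) with the mean and SD of each age (n = 3); every panel spans the same height of log2 units. Hadh to Hadha, Hadh to Acaa2 and Hsd17b4 to Ehhadh are higher in all adult libraries, Cpt1a to Cpt2 and Acsl3 to Acsl4 are lower, and the other 3 ratios overlap.

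Other genes of the pathway were read from the same test, in which 12.5% of all genes were higher and 13.8% lower. In the fits with 1 library left out, 8.55% to 12.5% of all genes were higher and 9.93% to 12.5% lower. A further list covered mitochondrial oxidation and related steps, some of them outside mitochondria, such as that of the cytosolic Acot7. Of its 25 tested genes, 2 were higher (8%) and 1 lower (4%), both below the shares of all genes. The median log2 fold change was -0.20. Acsl6, an acyl-CoA synthetase of brain, had 7.73, 6.39 and 4.61 CPM at P10 and 24.9, 14.7 and 14.9 CPM in adults (log2 fold change 1.51 ± 0.36, SE; edgeR FDR = 0.00589). Acad11, a dehydrogenase of longer chains, had 25.0, 23.2 and 24.5 CPM and 40.1, 35.6 and 34.5 CPM (0.60 ± 0.20, FDR = 0.0338). Acot7, a cytosolic thioesterase, had 24.5, 30.2 and 16.7 CPM and 12.1, 13.9 and 9.18 CPM (-1.05 ± 0.30, FDR = 0.016). In these 3 the groups did not overlap. The Acsl6 call was lost without adult replicate 1, the Acad11 call without P10 replicate 3 or 4, adult replicate 1 or 2, and under library totals alone, and the Acot7 call without P10 replicate 3 or adult replicate 3. With replicate numbers entered as a block the Acsl6 and Acad11 calls were lost too. With single libraries left out, between 0 and 2 of the 25 were higher and between 0 and 1 lower.

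Of 35 further peroxisomal genes tested, 4 were higher (11.4%, near the 12.5% of all genes) and 2 lower (5.71%, below the 13.8% of all genes), with a median of -0.023. Phyh, which starts the alpha-oxidation of phytanic acid, had 51.0, 48.4 and 48.8 CPM at P10 and 110.3, 89.8 and 97.9 CPM in adults (1.01 ± 0.15, SE; edgeR FDR = 0.000134). Cat, catalase, which removes the hydrogen peroxide made by the oxidases, had 38.0, 36.7 and 41.5 CPM and 67.1, 71.1 and 88.3 CPM (0.97 ± 0.17, FDR = 0.000545). Abcd2, a transporter of very long chains, had 39.5, 30.5 and 25.7 CPM and 8.99, 11.0 and 7.34 CPM (-1.84 ± 0.28, FDR = 0.000149). In all 3 the groups did not overlap, with Phyh and Cat higher and Abcd2 lower in adults, and the calls held under all 13 alternatives.

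Of 16 genes of fatty acid uptake, binding and lipolysis tested, 3 were higher (18.8%, where 12.5% of all genes were) and 4 lower (25.0%, where 13.8% of all genes were), with a median of -0.34. Dbi, the acyl-CoA-binding protein, had 127, 150.1 and 112 CPM at P10 and 61.6, 34.5 and 45.2 CPM in adults (-1.46 ± 0.19, SE; edgeR FDR = 4.31e-05). Fabp4, a fatty acid-binding protein of fat cells and capillary endothelium, had 22.1, 29.4 and 32.8 CPM and 5.53, 3.67 and 7.53 CPM (-2.27 ± 0.32, FDR = 8.38e-05). It stands on the adipocyte list too, where Cidec was higher, and 2 of 10 endothelial markers were lower, with a median of -0.69. Plin2, a coat protein of lipid droplets, had 25.8, 28.2 and 26.5 CPM and 50.1, 35.9 and 52.5 CPM (0.79 ± 0.20, FDR = 0.00823). Dbi and Fabp4 fell and Plin2 rose, each with groups apart, and the Plin2 call was lost under library totals alone (0.30). With single libraries left out, between 1 and 3 of the 16 were higher and between 3 and 4 lower.

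Among 23 regulators tested, 3 were higher (13.0%, near the 12.5% of all genes) and 2 lower (8.70%, below 13.8%), with a median of 0.074. Foxo1, a transcription factor held back by insulin, had 14.0, 14.7 and 15.3 CPM at P10 and 32.9, 42.1 and 40.8 CPM in adults (1.40 ± 0.22, SE; edgeR FDR = 0.000203). Crebbp, a coactivator, had 56.0, 54.1 and 80.6 CPM and 92.0, 96.8 and 103 CPM (0.62 ± 0.17, FDR = 0.0127). Prkag1, a subunit of the AMP-activated kinase that relieves the block on Cpt1, had 39.7, 69.2 and 60.9 CPM and 39.1, 39.2 and 31.9 CPM (-0.63 ± 0.21, FDR = 0.0394). Foxo1 and Crebbp rose and Prkag1 fell. The Crebbp call was lost without P10 replicate 3 and under library totals alone, and the Prkag1 call when any 1 library other than P10 replicate 1 was left out. The Prkag1 call was lost too with replicate numbers entered as a block. Between 1 and 4 regulators were higher and between 0 and 1 lower when single libraries were left out.

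Of 16 further genes tested as targets of PPAR-alpha, 3 were higher (18.8%, where 12.5% of all genes were). Another 1 was lower (6.25%, where 13.8% were), and the median was 0.082. Plin2, described above, was among the rises. The list holds none of the 32 genes, of which 8 were lower and 2 higher, so these shares leave out any targets among them. Txnip, an inhibitor of thioredoxin, had 111, 111 and 99.0 CPM at P10 and 57.1, 54.2 and 36.0 CPM in adults and fell (-1.14 ± 0.18, SE; edgeR FDR = 0.000209). Between 1 and 4 targets were higher and between 1 and 2 lower when single libraries were left out. Under library totals alone none of the 16 was higher and 5 were lower, where 3.39% of all genes were higher and 35.7% lower.

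**Figure D4:**
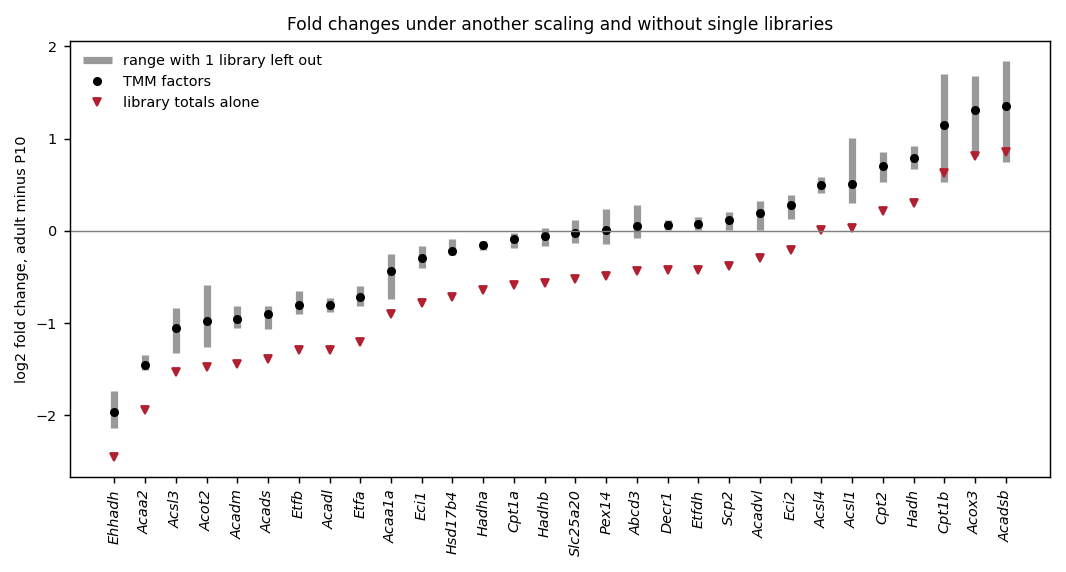
Log2 fold change, adult minus P10, of the 30 tested genes with TMM factors (circles), with library totals alone (triangles) and as a range over fits with 1 library left out (grey bars). The triangles lie below the circles throughout; Ehhadh and Acaa2 stay far below 0 and Hadh above it under each, while Cpt1b and Acadsb have the widest bars.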

How the data were processed

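Per the labels' protocols, polyadenylated RNA was read from 1 end, in libraries without strand information. Per the submitters' processing notes, Bowtie2, TopHat2 2.0.10 and HTSeq were used with rn5 as the genome build, and DESeq and edgeR are named with no role. Each library has a deposited file of raw counts, whole numbers of reads for each gene symbol. Only reads with a unique alignment within a single gene were counted, as the deposited counter rows show. The 5 counter rows entered neither the library sizes nor any test. Of gene counts and counters together, ambiguous reads were 0.319% to 0.474% and alignments that were not unique 15.1% to 27.7%, while the counter for reads outside genes lists 0. A deposited table of all libraries repeats the counts and was not used.

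The members and lists were chosen with earlier results of these data known. Genes were kept by filterByExpr (minimum count 10, total 15) and tested with edgeR 4.0.16 in R 4.3.3, with TMM factors and a quasi-likelihood model of age alone. P-values were adjusted by Benjamini-Hochberg across the 10124 tested genes, and an FDR under 0.05 was called. An SE was obtained as |log2 fold change| over the root of the F statistic. The biological coefficient of variation was 23.7%. Named genes are all members, and for each other list up to 3 called genes, 2 with the smallest p among those moving with the majority and 1 moving against it. Of the genes this rule names outside the members, 2 are not reported here. As alternatives each library was left out in turn, DESeq2 1.42.0 replaced edgeR, the factors were changed (relative log expression, totals alone, or TMM after removing hormone and acinar genes), the filter was dropped or set to 5 CPM in 3 libraries, and replicate numbers entered as a block. In a test on simulated counts with the same means and library sizes, the fit of 10234 genes called 32 of 100 true 2-fold changes and 97 of 100 true 4-fold changes. It wrongly called 7 of 10040 genes that were simulated without one. The simulation changed far fewer genes than the 2659 called in the data. It also gave all genes the same coefficient of variation and built in no shift of the insulin share. These rates therefore need not hold for the data. RefSeq tables of the GRCr8 build gave promoter windows and which genes overlap.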

Additional observations from a re-analysis of the deposited data

How the results depend on the processing

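Counts of genes past the threshold were 2 higher and 7 lower in the mitochondrial group and 0 and 1 in the peroxisomal group. Of all genes tested 12.5% were higher and 13.8% lower. With library totals alone, mitochondrial genes were 0 higher and 12 lower and peroxisomal genes 3 lower, where 3.39% of all genes were higher and 35.7% lower. The replicate number was entered as a block, which the titles share only for numbers 1 and 3. P10 replicate 4 and adult replicate 2 are each alone in their block and add nothing to the estimated age difference. The block left 1 mitochondrial gene higher (Hadh) and 2 lower (Acaa2 and Etfa). Over all genes the block left 1408 calls in place of 2659, with 6.71% of the 10124 genes higher and 7.2% lower. Under it Cpt2, Acsl3, Acadm, Acads, Acadl and Etfb lost their call (FDR from 0.0520 to 0.238). Same-numbered libraries did not deviate together (correlations -0.0239 and -0.00489), so the numbers were not taken as pairs. Peroxisomal genes were 1 higher (Acox3) with DESeq2 and with no filter, where 13.1% and 10.5% of all genes were higher. With single libraries left out, mitochondrial genes ran from 1 to 3 higher and from 4 to 6 lower, and peroxisomal genes from 0 to 1 higher, with 1 lower throughout. In those fits 8.55% to 12.5% of all genes were higher and 9.93% to 12.5% lower. The cause of these moves was not tested.

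Ehhadh, Acaa2 and Etfa kept their call under all 13 alternatives. Signs turned only for genes that had not passed. Under library totals alone these were Acadvl (-0.30), Etfdh (-0.43), Eci2 (-0.21), Decr1 (-0.42), Scp2 (-0.38), Pex14 (-0.49) and Abcd3 (-0.44). With the block they were Scp2 (-0.041), Pex14 (-0.088) and Abcd3 (-0.035), and Pex14 turned with the 5 CPM filter too (-0.0082). With single libraries left out the log2 fold change ran from -0.14 to 0.12 for Slc25a20, from -0.16 to 0.034 for Hadhb, from -0.14 to 0.24 for Pex14 and from -0.078 to 0.28 for Abcd3. The difference of log2 ratios ran from -0.058 to 0.24 for Etfa to Etfb, from -0.25 to 0.039 for Hadha to Hadhb and from -0.094 to 0.51 for Acsl1 to Acsl4. Acaa1a gave no value with the 5 CPM filter or without P10 replicate 1, and the ratios do not depend on scaling or filters. Acaa1a had 76 counts over the P10 and 30 over the adult libraries, so that counting error is large for it.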
